A study of Mus musculus with 15 samples.

Results

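The 10 claudin genes Cldn1, Cldn2, Cldn3, Cldn4, Cldn5, Cldn7, Cldn10, Cldn12, Cldn18 and Cldn23 were followed through all 15 RNA-Seq libraries of mouse pancreas. They are 10 of 36 claudin and claudin-like genes looked up in the count tables, and they were chosen on the measured counts of KMC and KC, in which Cldn2 was higher in KMC. The comparison of KMC with KC is therefore given as a description without a test, whereas the other comparisons were tested.

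All mice were C57BL/6. MC mice carry M46, a kinase-dead form of the kinase HPK1 (gene Map4k1), and HC mice carry HPK1 itself. Both transgenes are switched on by the tamoxifen-inducible Bac-cre, which is driven by an elastase promoter and acts in acinar cells. MC was compared with 3 libraries of its own control, labelled B control, at 2 months of age, and HC with 2 libraries labelled WT at 4 months, with 3 libraries each of MC and HC. The mice of both experiments had received cerulein, a peptide that drives acinar cells into excess secretion and injury, a model of pancreatitis. KC mice are labelled Ras/B, and KMC mice (M46/Ras/B) carry M46 in addition. There were 2 KC libraries at 15 months and 2 KMC libraries at 9 months of age, so genotype and age cannot be told apart in that comparison, and no cerulein treatment is stated for them. Their labels give the tissue as pancreas, whereas the text of the study treats them as tumour samples of pancreatic ductal adenocarcinoma. Each library held RNA pooled from 3 mice.

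Claudins are membrane-spanning proteins that join neighbouring epithelial or endothelial cells at the tight junction. Some, such as claudins 1, 3, 5 and 18, tighten the barrier, whereas claudin 2 forms a pore for small cations and water, and claudin 10 exists in forms that conduct cations or anions. In the normal pancreas, claudins line the junctions of acini and ducts. Claudin 18 is best known from stomach and lung, claudin 5 from blood vessels, and claudins 4 and 18 are known markers of pancreatic neoplasia.

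Cldn2 lies on the X chromosome (GRCm38, 139800828 to 139811386, + strand) and Cldn18 on chromosome 9 (99689461 to 99717267, - strand). Cldn3 and Cldn4 are neighbours on chromosome 5, at 134986214 to 134987472 and 134945119 to 134946934. RefSeq gives a promoter window for 9 of the 10 genes, and Cldn18 has a pair of them because it is transcribed from alternative first exons. Counts per gene do not separate these starts. The 250 bases before each start of Cldn2 and Cldn18 are shown, since these are the genes on which the comparisons below turn, with the GRCm38.p6 positions chrX:139800558-139800807 (+), chr9:99717268-99717517 (-) and chr9:99710064-99710313 (-).
Cldn2: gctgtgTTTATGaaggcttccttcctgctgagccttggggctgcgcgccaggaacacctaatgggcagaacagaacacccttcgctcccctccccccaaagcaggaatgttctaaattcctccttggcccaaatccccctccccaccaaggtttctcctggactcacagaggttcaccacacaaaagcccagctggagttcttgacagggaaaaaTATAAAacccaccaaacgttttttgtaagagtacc
Cldn18, upstream start: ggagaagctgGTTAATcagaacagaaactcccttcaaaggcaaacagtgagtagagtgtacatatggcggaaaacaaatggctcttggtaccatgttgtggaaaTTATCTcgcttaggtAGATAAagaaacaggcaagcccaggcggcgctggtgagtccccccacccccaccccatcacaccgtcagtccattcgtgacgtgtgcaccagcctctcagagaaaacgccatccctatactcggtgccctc
Cldn18, downstream start: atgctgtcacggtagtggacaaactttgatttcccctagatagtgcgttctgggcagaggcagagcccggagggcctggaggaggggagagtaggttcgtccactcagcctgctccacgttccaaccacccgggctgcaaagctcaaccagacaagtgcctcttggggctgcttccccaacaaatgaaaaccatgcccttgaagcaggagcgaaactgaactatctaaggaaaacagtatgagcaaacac
Capitals mark matches to 6 short motifs searched on both strands. These were the HNF1 half-site GTTAAT, the motif AGATAA of factors related to Gata4, the CDX motif TTTATG, the AP-1 motif TGANTCA, the core promoter box TATAAA and the STAT motif TTCNNNGAA. The reverse of the promoter box begins with the same letters as the CDX motif, but the matches printed do not overlap. The Cldn2 window held TTTATG 244 bases and TATAAA 35 bases before the start, which are found in 10.8% and 12.4% of 32817 RefSeq windows of this length. The upstream Cldn18 window held GTTAAT at 240 bases and AGATAA on both strands, at 146 and 131 bases, against 6.44% and 9.99% of all windows. The downstream Cldn18 window held none of the 6 motifs.

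The libraries held 29766575 to 38745907 counts. CPM are counts set relative to each library's total, which for all other CPM given here was first multiplied by a scaling factor (TMM). These factors ran from 0.486 in KC 1 to 2.17 in KMC 2. Without them, 3 counts, which is as much as a count of 0 leaves possible, were 0.0774 to 0.101 CPM. With them the limit was higher in KC 1, where 1 count of Cldn1 was 0.0681 CPM, and lower in KMC 2. That limit covers counting error only. A list of 28 acinar genes (27 of them in the MC table) took 35.9 to 54.5% of the counts in the MC experiment, 5.70 to 8.90% in the HC experiment, 58.6 and 66.8% in KC, and 24.2 and 47.4% in KMC. Map4k1 had 6.79 to 8.32 CPM in MC against 2.34 to 4.14 CPM in its controls, and 5.92 and 11.4 CPM in KMC against 0.54 and 1.55 CPM in KC. In the libraries labelled HC it had 5.05 to 7.93 CPM against 11.5 and 15.4 CPM in the controls, which goes against the label. HPK1 also acts in T cells, and 10 leukocyte genes summed to 1044 to 1728 CPM in HC against 1755 and 3071 CPM. They summed to 657 and 2127 CPM in KMC against 214 and 245 CPM in KC. The 9 of them in the MC table summed to 707 to 1055 CPM in MC against 386 to 1061 CPM. The part of leukocytes in the Map4k1 level was not tested. Library HC 3 and both KC libraries had the Y-linked Ddx3y and little Xist, whereas the other HC, the HC control and the KMC libraries had Xist and no Ddx3y. Neither gene is listed in the MC table.

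All 10 claudins had counts in every library, but their make-up differed between the experiments. In the HC experiment, Cldn2 was the most abundant claudin per length of transcript, with 42.4 to 50.6% of the reads per kilobase of the 10 genes in each of the 5 libraries. In KC, Cldn3 led with 56.3 and 50.2%, Cldn10 followed with 18.9 and 23.1%, and Cldn2 held 0.481 and 1.25%. In the MC experiment Cldn3 and Cldn4 led, with 29.4 to 52.6% and 14.0 to 48.3%, and their ranges over the libraries overlapped. In KMC, Cldn2 held 14.1 and 13.7%. These shares need no scaling between libraries.

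**Figure D1:**
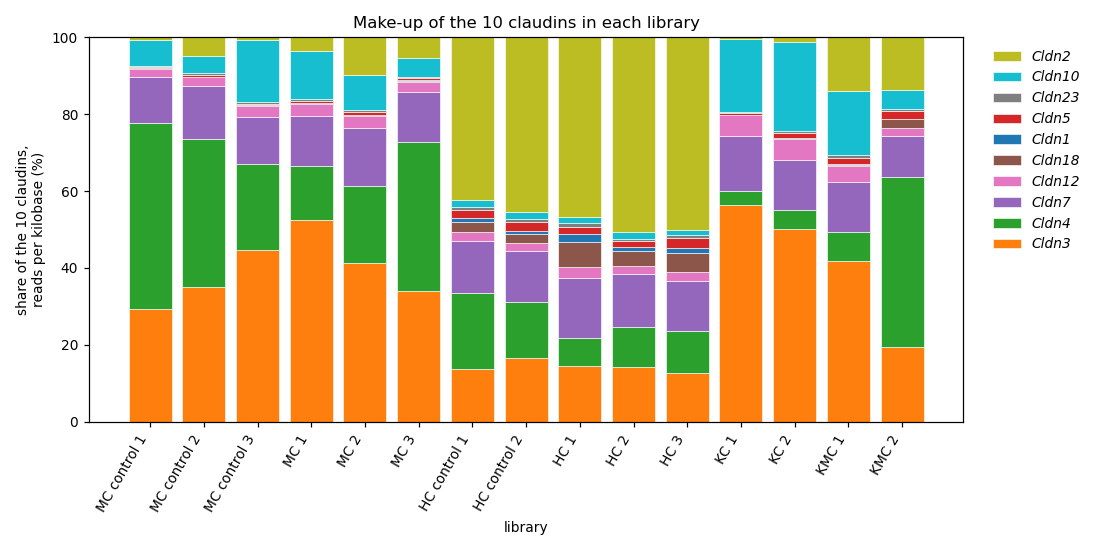
The bars show each of the 15 libraries on the x axis, split by the share of the 10 claudins in percent, from reads per kilobase of transcript. Cldn2 takes 42.4 to 50.6% in the HC experiment and 0.481 to 14.1% elsewhere, while Cldn7 stays between 10.7 and 15.7% in every library.

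Cldn7, which also binds the adhesion protein Epcam, had the steadiest share: it lay between 10.7 and 15.7% in all 15 libraries, a ratio of 1.47 between the highest and the lowest. The same ratio was 2.20 for Cldn23, 2.69 for Cldn12, 4.43 for Cldn3 and 9.78 for Cldn5. It was 12.7 for Cldn4, 18.1 for Cldn10 and 105 for Cldn2. Cldn18 ranged over 132 and Cldn1 over 375, with Cldn1 near the counting limit in the MC experiment, where its counts were 3, 5 and 1 in the controls and 7, 19 and 25 in MC. The tables come from separate experiments with different ages and library kits, so these differences between experiments were not tested. The tissue make-up differed too: acinar genes took 5.70 to 8.90% of the counts in the HC experiment and 24.2 to 66.8% elsewhere. A list of 10 gastric genes summed to 2776 to 9897 CPM in the HC experiment, against 17.7 to 149 CPM in KC and KMC. The part of tissue make-up in the claudin shares was not tested.

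**Figure D2:**
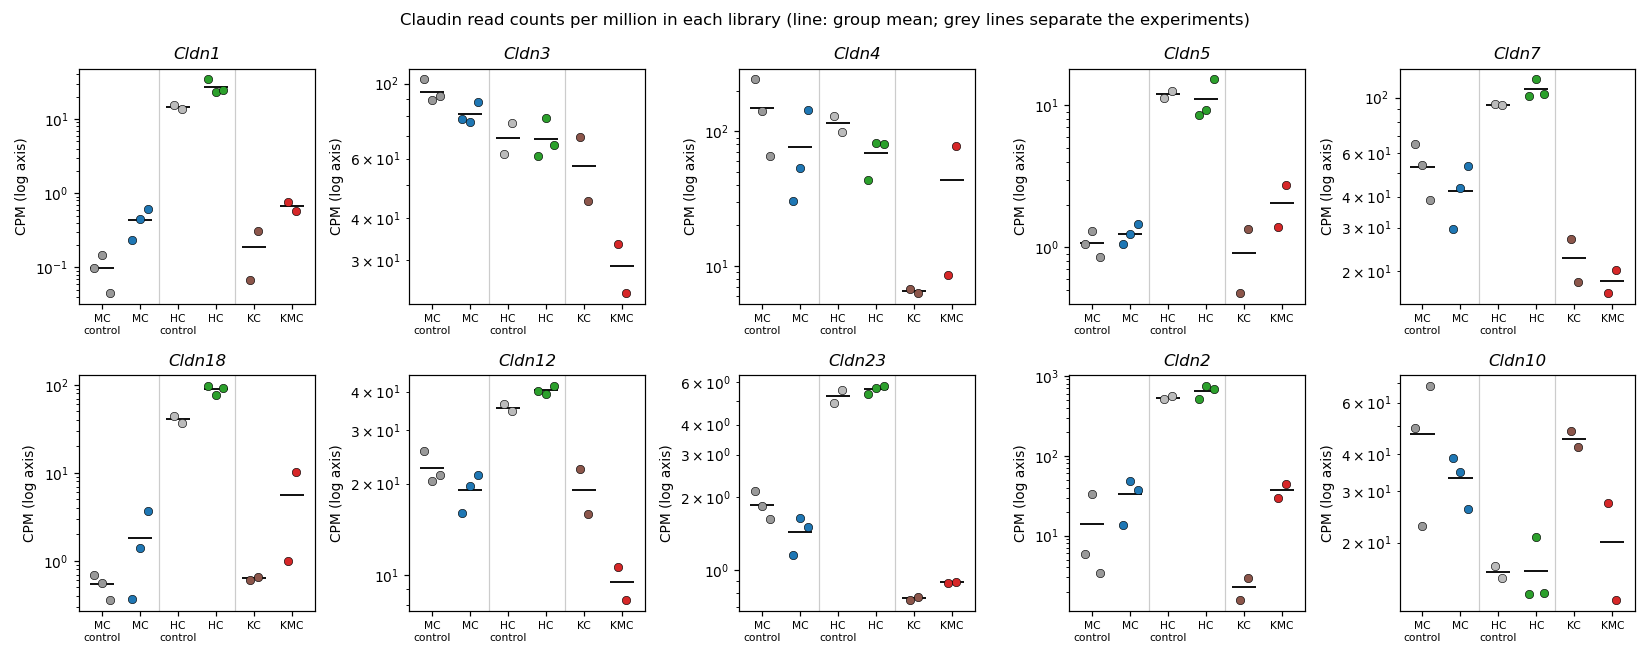
Each panel shows 1 claudin, with CPM on a log axis, the 6 groups on the x axis, a point for each library and a line for the group mean. Cldn18 is higher in all 3 HC libraries than in both HC controls, Cldn2 is higher in both KMC than in both KC libraries, and MC control 2 lies with the MC libraries for Cldn2.

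Ordered by reads per kilobase of transcript, scaled to the size of the library, HC ran from Cldn2 at 195 ± 34.6 (SD, n = 3), through Cldn7 at 55.4 ± 4.76, Cldn3 at 54.4 ± 7.36, Cldn4 at 38.0 ± 12.1 and Cldn18 at 20.0 ± 2.39, to Cldn23 at 3.03 ± 0.122. Cldn7 and Cldn3 overlapped in this order, and so did Cldn12, Cldn5, Cldn10 and Cldn1, each with its neighbour. In the HC controls, Cldn4 had rank 2 at 63.1 ± 12.6 (n = 2) and Cldn18 rank 5 at 9.14 ± 1.07. In KC, Cldn2 had rank 6 at 0.678 ± 0.293 (n = 2) and overlapped Cldn5, and in KMC it had rank 3 at 11.2 ± 3.12 and overlapped Cldn7.

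The comparison of the libraries labelled HC with their controls was designed to ask about HPK1 in acinar cells after cerulein, but its direction rests on the labels, since Map4k1 was at 5.05 to 7.93 CPM in HC against 11.5 and 15.4 CPM in the controls. Here Cldn18, a barrier claudin of stomach and lung, rose most and was the only claudin called. It had 96.9, 76.9 and 93.0 CPM in HC 1 to 3 against 44.1 and 37.4 CPM in the controls, a mean of 88.9 ± 10.6 against 40.7 ± 4.77 CPM (SD, n = 3 and 2). The groups did not overlap. The rise was 2.18-fold (log2 fold change 1.13, SE 0.14, adjusted p = 0.0428 with edgeR's quasi-likelihood test and Benjamini-Hochberg adjustment). A gene was called when its adjusted p did not exceed 0.05 and its log2 fold change was 1 or more in either direction. Thus 1 of 10 claudins was called, against 0.565% of all 18407 genes tested. The call was lost without HC 2, HC 3, HC control 1 or HC control 2, with log2 fold changes of 1.23, 1.08, 1.25 and 1.01 and 0 claudins called each time, and 0, 3, 0 and 0 of all genes were called in these fits. It was also lost when the HC, KC and KMC experiments shared 1 fit (log2 fold change 1.13), and with DESeq2 the adjusted p was 1.5e-08, within a range over all alternatives of 1.5e-08 to 0.874.

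Relative to Epcam, an epithelial adhesion gene, Cldn18 had 18.9, 13.7 and 17.5 reads per 100 Epcam reads in HC and 9.39 and 7.26 in the controls, without overlap. The summed level of 10 gastric genes moved with it, from 3857 and 2776 CPM in the controls to 9580, 8675 and 9897 CPM in HC. Of these 10 genes, 9 were higher in HC without overlap, where 17.5% of all genes were. edgeR called 0 of the 10, against 0.565% of all genes. Their median log2 fold change was 1.56, and none was at 0 in any library. In both groups this sum was far above that of KC and KMC, at 17.7 to 149 CPM, although all libraries are labelled pancreas. Other lists also stood higher in each HC library than in both controls. The gut genes summed to 238 to 261 CPM against 129 and 162 CPM. The ductal genes summed to 9193 to 12035 against 6931 and 7160 CPM, and the islet genes to 3492 to 5589 against 2932 and 3154 CPM. The leukocyte and endothelial sums were lower in each HC library than in both controls, and the acinar, fibroblast, mesothelial and adipocyte sums overlapped. The part of stomach-type or other cells in the Cldn18 difference was not tested. In bulk tissue such as this, more cells of a type and more RNA per cell cannot be told apart.

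**Figure D3:**
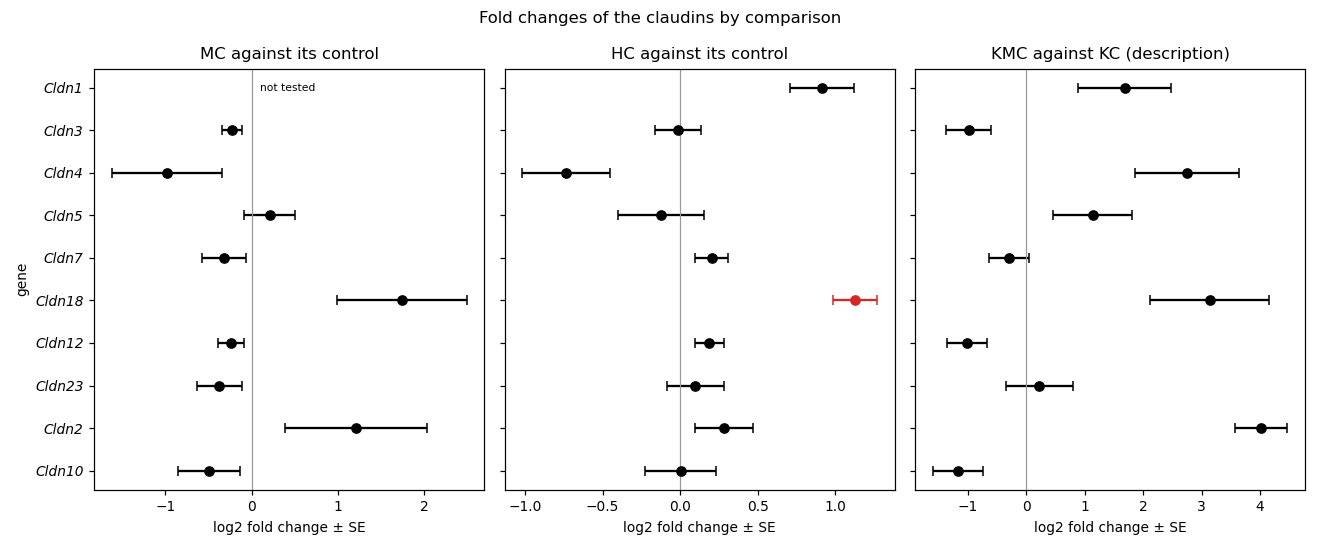
Points give the log2 fold change of each claudin against its own control and bars its standard error, on an x axis of its own in each of the 3 comparisons, and the red point marks the claudin called at an adjusted p of at most 0.05. Cldn18 in HC is the only called point, at 1.13. KMC against KC, with Cldn2 at 4.01, is a description without a test, and its bars lend no support.

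Cldn1, a core barrier claudin, had 34.5, 23.4 and 24.5 CPM in HC against 15.5 and 13.6 CPM in the controls. All 3 HC libraries lay above both controls, but the difference did not pass (log2 fold change 0.91, SE 0.20, adjusted p = 0.116, edgeR with Benjamini-Hochberg adjustment). Over all alternatives the adjusted p of Cldn1 ran from 0.0031 with DESeq2 to 0.573, and none of them called it. Cldn4, a barrier claudin found at high levels in pancreatic tumours, went the other way, with 43.7, 82.7 and 80.5 CPM in HC against 131 and 98.5 CPM. Its groups did not overlap either (log2 fold change -0.73, SE 0.28, edgeR adjusted p = 0.287).

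Cldn7 (102, 119 and 104 against 94.4 and 93.2 CPM) and Cldn12 (40.1, 39.3 and 41.7 against 36.4 and 34.6 CPM) also stood higher in each HC library than in each control. Their log2 fold changes were small, at 0.20 (SE 0.11) and 0.19 (SE 0.09). Hence 4 claudins were higher and 1 was lower without overlap, which is 5 of 10, where 33.5% of all genes did not overlap (17.5% higher, 16.1% lower). At an unadjusted p under 0.05 there were 2 higher and 1 lower, and the share of all genes was 8.39% and 7.47%. The median log2 fold change of the 10 claudins was 0.14, and that of all genes was near 0 (-0.0011).

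The pore-forming claudins did not pass the test in HC. Cldn2 had 520, 742 and 684 CPM in HC and 510 and 556 CPM in the controls, and HC 1 lay between the controls (log2 fold change 0.28, SE 0.19, edgeR adjusted p = 0.521). Per 100 Epcam reads it had 101 to 132 in HC and 108 in both controls. Cldn10 had 13.4 to 21.0 CPM in HC and 15.2 and 16.6 CPM in the controls, with a log2 fold change of 0.0048 (SE 0.23). Cldn3 (61.0 to 78.9 against 62.0 and 76.2 CPM) and Cldn23 (5.35 to 5.77 against 4.91 and 5.56 CPM) overlapped as well. The directions of Cldn10 and Cldn3 in HC turned under other settings.

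Cldn5, the claudin of endothelial tight junctions, had 8.48, 9.25 and 15.2 CPM in HC and 11.2 and 12.7 CPM in the controls (log2 fold change -0.12, SE 0.28). Of the 10 endothelial marker genes, 10 were lower in HC, with a median log2 fold change of -0.41. edgeR called 0 of them, against 0.565% of all genes. Without overlap 5 were lower, beside 16.1% of all genes, and 3 were lower at an unadjusted p under 0.05, beside 7.47%. The summed endothelial level was 375 to 509 CPM in HC against 528 and 672 CPM. Pecam1, an endothelial adhesion gene, had a log2 fold change of -0.41 (SE 0.16, edgeR adjusted p = 0.29). Whether the endothelial share bears on Cldn5 was not tested.

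The comparison of MC with its control concerns the kinase-dead M46. In it, no claudin passed: 0 of the 9 tested were called by edgeR, as were 0% of the 13902 genes tested. With an unadjusted p under 0.05 there were still 0 claudins, against 14.7% of all genes, and DESeq2 called 0 claudins and 453 genes. Cldn1 was too low to be tested. The median log2 fold change of the 9 claudins was -0.24, with 3 higher and 6 lower, whereas scaling by library size alone gave 6 higher and 3 lower and moved the median of all genes from -0.02 to 0.29.

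Cldn2 varied widely within both groups. It had 13.6, 47.8 and 37.3 CPM in MC 1 to 3, and 5.85, 33.2 and 3.37 CPM in controls 1 to 3. Control 2 lay among the MC libraries, so the groups overlapped (log2 fold change 1.21, SE 0.83, adjusted p = 0.483, edgeR with Benjamini-Hochberg adjustment). Without control 2, the log2 fold change was 2.82 and Cldn2 passed (edgeR adjusted p = 0.0367, against up to 0.818 under the other alternatives), as did 718 genes. Markers of other cell types were also high in this library: control 2 had 1061 CPM of 9 leukocyte genes and 2423 CPM of 8 fibroblast genes, against 386 to 519 and 990 to 1206 CPM in controls 1 and 3. It also had the lowest acinar share of the controls, 41.2%. The part of these in the Cldn2 level was not tested.

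Relative to Epcam, Cldn2 in MC gave 16.1, 42.5 and 29.8 reads per 100 Epcam reads, and 4.97, 28.5 and 4.17 in the controls, so the same control stood apart. Cldn18 had 0.37, 1.39 and 3.70 CPM in MC and 0.69, 0.57 and 0.36 CPM in the controls (log2 fold change 1.74, SE 0.75, edgeR adjusted p = 0.34). MC 1 lay within the controls. The 5 gastric genes of this table summed to 31.0, 71.7 and 84.9 CPM in MC against 17.5, 25.1 and 7.73 CPM in the controls.

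The barrier claudins that dominate this experiment had lower means in MC. Cldn4 had 30.2, 53.6 and 145 CPM in MC and 244, 141 and 66.0 CPM in the controls, with overlap (log2 fold change -0.98, SE 0.63, edgeR adjusted p = 0.464). Cldn3 had 78.3, 76.8 and 88.1 CPM in MC against 103, 89.5 and 91.7 CPM and was the only tested claudin without overlap, where 20.7% of all genes did not overlap (9.89% lower). Its log2 fold change was -0.22 (SE 0.12, edgeR adjusted p = 0.397) and turned to 0.10 when scaled by library size alone. Cldn7 (29.6 to 53.0 against 38.6 to 65.2 CPM), Cldn12 (16.1 to 21.4 against 20.5 to 25.5 CPM), Cldn10 (26.0 to 38.7 against 22.8 to 68.3 CPM), Cldn23 (1.15 to 1.65 against 1.62 to 2.12 CPM) and Cldn5 (1.05 to 1.46 against 0.85 to 1.31 CPM) overlapped between the groups.

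The contrast of MC with its control was set against that of the libraries labelled HC with theirs in 1 model, to compare both transgenes. Map4k1 went against the label HC, so the direction of this difference rests on the labels. No claudin differed by the edgeR call (0 of 10, against 2.18% of 14884 genes), and DESeq2 called 0 of them too, against 1005 of all 14884 genes. At an unadjusted p under 0.05 there was 1, Cldn12, where 20.8% of all genes had such a p, with an effect in MC 0.43 lower on the log2 scale (SE 0.19, edgeR adjusted p = 0.221). The effect on Cldn18 differed by 0.62 (SE 0.80) and that on Cldn2 by 0.92 (SE 1.01). Without MC control 2, the difference of Cldn2 was 2.53 and passed (edgeR adjusted p = 0.0257, against up to 0.839 under the other alternatives). In that fit 1584 of 14885 genes were called, against 325 of 14884 with all libraries. The experiments had different ages and library kits, and how far these bear on the difference cannot be told apart from the transgene.

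KMC against KC is the contrast for which the claudins were chosen, and its values are described without a test. Cldn2 had 29.8 and 44.4 CPM in KMC and 1.57 and 2.94 CPM in KC, and both KMC libraries lay above both KC libraries. The fitted ratio was 16.2-fold (log2 fold change 4.01, SE 0.45). The SE values of this comparison come from its fit and lend no support, since the claudins were chosen on this contrast. Per 100 Epcam reads, Cldn2 had 45.4 and 42.6 in KMC against 3.32 and 6.14 in KC. The reads per kilobase of Cldn2 in KMC were near those of MC (11.2 ± 3.12 and 9.90 ± 5.27, n = 2 and 3) and far below those of the HC experiment.

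**Figure D4:**
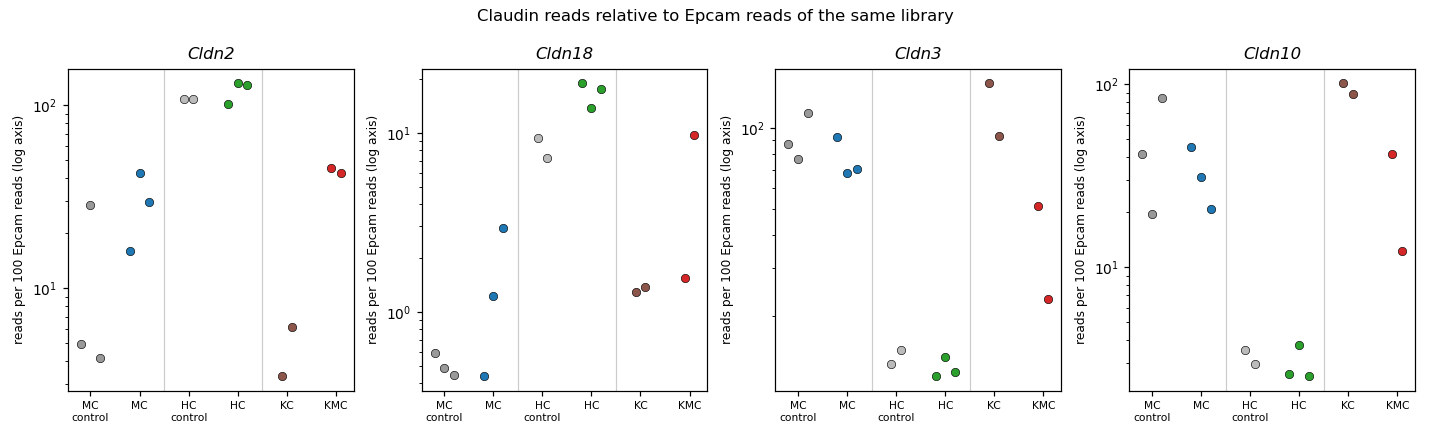
Each panel gives the reads of 1 claudin per 100 Epcam reads of the same library on a log axis, with 1 point a library and the 6 groups on the x axis. Cldn2 lies at 42.6 and 45.4 in KMC and at 3.32 and 6.14 in KC, whereas Cldn3 and Cldn10 are lower in both KMC than in both KC libraries.

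Cldn18 and Cldn4 were high in KMC 2 alone. Cldn18 had 1.01 and 10.2 CPM in KMC against 0.61 and 0.66 CPM in KC (log2 fold change 3.13, SE 1.01). Cldn4 had 8.50 and 78.5 CPM in KMC against 6.74 and 6.27 CPM in KC (log2 fold change 2.74, SE 0.89). Without KMC 2, the log2 fold changes were 0.68 and 0.41. Without KMC 1 they were 3.98 and 3.58, and those of Cldn2 were 3.71 and 4.26. KMC 2 also had 2127 CPM of 10 leukocyte genes and 6499 CPM of 8 fibroblast genes, against 657 and 2209 CPM in KMC 1 and 214 to 245 and 429 to 902 CPM in KC. Its 10 gastric genes summed to 149 CPM, against 69.6 CPM in KMC 1 and 17.7 and 27.7 CPM in KC, and the part of these cells was not tested.

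Cldn1 (0.76 and 0.58 against 0.07 and 0.31 CPM) and Cldn5 (1.40 and 2.73 against 0.48 and 1.35 CPM) were higher in KMC at low levels, and Cldn23 differed little (0.88 and 0.89 against 0.75 and 0.77 CPM). KC 1 had 1 count of Cldn1, so no fold is given for it alone. Cldn3, Cldn12 and Cldn10 had lower CPM in both KMC than in both KC libraries. Cldn3 had 33.6 and 24.0 CPM against 69.3 and 44.9 CPM (log2 fold change -0.99), Cldn12 had 10.7 and 8.30 CPM against 22.3 and 15.9 CPM (-1.01), and Cldn10 had 27.4 and 12.7 CPM against 47.9 and 42.4 CPM (-1.17). Cldn7 overlapped, with 16.4 and 20.3 CPM against 27.1 and 18.1 CPM. In all, 6 claudins were higher and 3 lower without overlap, where 65.3% of all genes did not overlap (34.4% higher, 30.9% lower).

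These lower values depended on the scaling, and the acinar share of the counts was 66.8 and 58.6% in KC and 47.4 and 24.2% in KMC. With library size alone, which moved the median of all genes to 1.47 on the log2 scale, all 10 claudins had higher values in KMC, with Cldn3, Cldn12 and Cldn10 at 0.47, 0.45 and 0.15 and Cldn2 at 5.47. When the acinar genes were left out of the library size, the median of all genes was 0.68, 7 claudins were higher, Cldn2 stood at 4.66, and Cldn3, Cldn12 and Cldn10 were at -0.32, -0.34 and -0.55. Relative to Epcam, which needs no scaling, Cldn3 had 51.3 and 23.0 reads per 100 Epcam reads in KMC against 147 and 93.7 in KC, and Cldn10 had 41.8 and 12.2 against 102 and 88.6. Epcam itself had a log2 fold change of 0.84.

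The KC libraries had the pattern of males and the KMC libraries that of females, and Cldn2 is X-linked. The median log2 fold change of the 512 tested X-linked genes other than Xist and Tsix was 0.11 in KMC against KC. Cldn2 had rank 4 among them, but a high rank was given by its choice on this contrast. In the HC experiment, male-type library HC 3 had 684 CPM of Cldn2, between HC 1 and HC 2. Sex and genotype cannot be told apart in KMC against KC, and the part of sex was not tested.

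Among the other claudins, Cldn6, Cldn8, Cldn15 and the claudin-like Cldnd1 had a mean of at least 1 CPM in each experiment, Cldn9 in the MC and KMC experiments, and Cldn34c1 in the HC experiment. None of them was called by edgeR in MC (0 of 6 tested, against 0% of all genes) or HC (0 of 8 tested, against 0.565% of all genes). At an unadjusted p under 0.05, 1 of the 6 was lower in MC and 1 of the 8 in HC, beside 5.46% and 7.47% of all genes. These were Cldn9 in MC (log2 fold change -1.79, SE 0.68, adjusted p = 0.3 with edgeR) and Cldn6, a claudin of embryonic epithelium, in HC (-1.25, SE 0.28, edgeR adjusted p = 0.115). DESeq2 called Cldn6 in HC (adjusted p = 0.0015), and over all alternatives its adjusted p ran from 0.0015 to 0.496. In KMC, Cldn8 and Cldn9 had log2 fold changes of -1.52 and -2.05.

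Claudins are held in place by other junction proteins, and a list of 32 of them was followed: 13 membrane proteins such as occludin and the angulins, and 19 plaque proteins such as the zonula occludens scaffolds. In HC, 23 were higher and 9 lower, with a median log2 fold change of 0.15. No junction gene passed both thresholds (0 called by edgeR, against 0.565% of all genes). At an unadjusted p under 0.05, 11 were higher and 2 lower, beside 8.39% and 7.47% of all genes. Without overlap, 16 were higher and 4 lower, beside 17.5% and 16.1% of all genes. Lsr, which encodes an angulin of tricellular junctions, had a log2 fold change of 0.74 (SE 0.10, adjusted p = 0.0449, edgeR with Benjamini-Hochberg adjustment). Tjp3, a zonula occludens scaffold, stood at 0.77 (SE 0.11, edgeR adjusted p = 0.0503), and Ocln, which encodes occludin, at 0.78 (SE 0.13, edgeR adjusted p = 0.0587). Ildr2, another angulin, was at -0.76 (SE 0.22), Mpdz at -0.35 and the endothelial Esam at -0.35. The summed level of 4 epithelial genes was 4272 to 4921 CPM in HC and 3155 and 3245 CPM in the controls, and Krt19, a duct keratin, had a log2 fold change of 0.96 (SE 0.21, edgeR adjusted p = 0.113); their part in the junction genes was not tested.

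**Figure D5:**
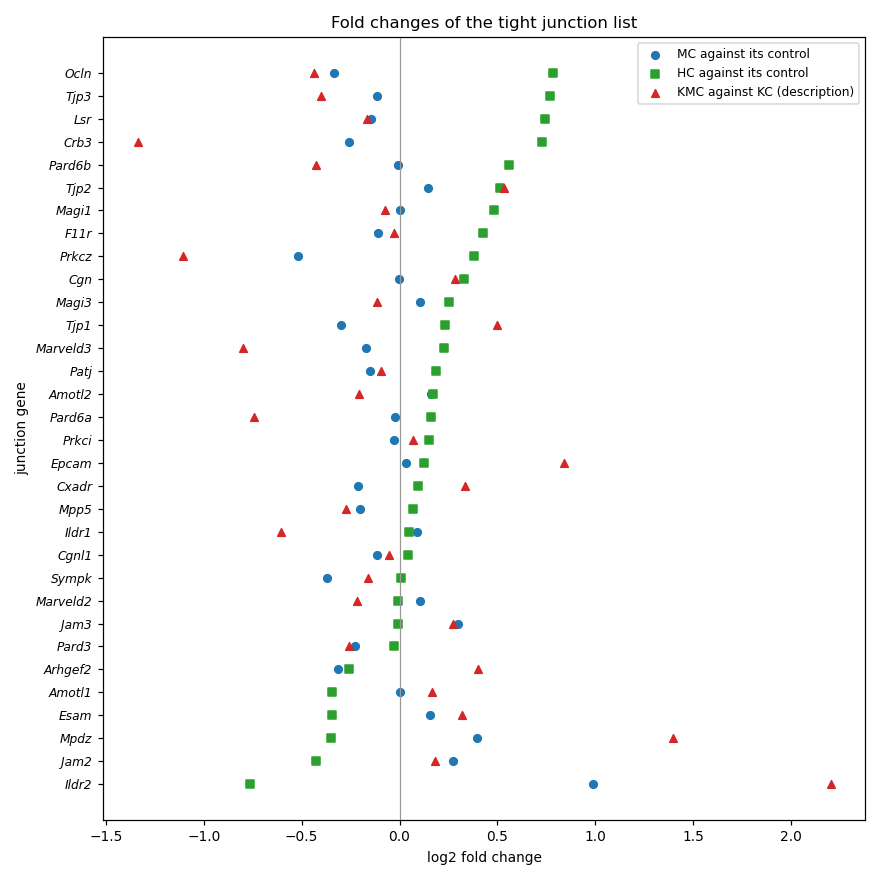
The 32 tight junction genes are ordered on the y axis by their log2 fold change in HC, with the log2 fold change on the x axis and 1 marker for each of the 3 comparisons. In HC 23 lie above 0, in MC 13 and in KMC 13, and Ildr2 is the lowest in HC and the highest in MC and KMC.

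In MC, 13 junction genes were higher and 19 lower, with a median log2 fold change of -0.03 and 0 called by edgeR, against 0% of all genes. At an unadjusted p under 0.05, 1 was higher and 3 lower, beside 9.2% and 5.46% of all genes. Ildr2 was the one that was higher (log2 fold change 0.99, SE 0.33, edgeR adjusted p = 0.262), and it passed without MC control 2 (1.43, edgeR adjusted p = 0.0308, against up to 0.685 under the other alternatives). In that fit 718 of 14129 genes were called, against 0 of 13902 with all libraries. Without overlap, 1 junction gene was higher and 7 lower, beside 10.9% and 9.89% of all genes. Of those 7, Sympk, Arhgef2 and Tjp1 had the largest changes, at -0.37, -0.31 and -0.30. Tested between the transgenes, Ocln was the 1 of 32 that was called (effect in MC minus effect in HC -1.13, SE 0.25, edgeR adjusted p = 0.0483), against 2.18% of all genes. It had 21.5 to 30.7 CPM in MC and 28.3 to 40.3 CPM in its controls, and 99.1 to 126 CPM in HC against 65.1 and 67.0 CPM. The call was lost without any one of 10 of the 11 libraries, all except MC control 2, with differences of -0.98 to -1.22. It was also lost with library size alone (-0.70), without the acinar genes (-0.95) and with the replicate block (-1.22, edgeR adjusted p = 0.121). The effects on Ildr2, higher in each MC and lower in each HC library than in every control, differed by 1.74 (SE 0.45, edgeR adjusted p = 0.0652). With DESeq2 this difference was called (1.72, DESeq2 adjusted p = 0.0061), as were 1005 of 14884 genes. Without MC control 2 it was called too (2.18, edgeR adjusted p = 0.0077), as were 1584 of 14885 genes. Under the other alternatives it was not called, with an adjusted p of up to 0.213 (edgeR). In KMC against KC, described only, 13 junction genes were higher and 19 lower with a median of -0.09. Ildr2 stood at 2.20, the scaffold Mpdz at 1.40 and Epcam at 0.84, with the polarity genes Crb3 and Prkcz at -1.34 and -1.10 and Marveld3, a relative of occludin, at -0.80. Scaled by library size alone, Crb3, Prkcz and Marveld3 were at 0.10, 0.27 and 0.60.

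The likeness between genes was measured by the correlation of log2 CPM over the 15 libraries after the mean of each experiment was taken out, over 13655 genes. It is a description, since the points share libraries, depth and acinar share, and the difference of KMC and KC in Cldn2, by which the claudins were chosen, enters r. The genes most like Cldn2 were Tnfrsf11a, the receptor of RANK ligand, and Cdk19 (r = 0.98 each), then Fmnl2 and Ampd3 (0.97) and Pof1b (0.96). Over the 11 libraries of the MC and HC experiments alone, a choice of libraries made after seeing the data, the same 5 genes had r of 0.95 (Tnfrsf11a, Cdk19, Fmnl2 and Ampd3) and 0.94 (Pof1b). These 5 genes were picked over all 15 libraries, which include these 11. A high r was thus largely given by the choice and is no separate support. Those most like Cldn18 were Sertad1 (0.95), Actn4 (0.94) and Zdhhc13 (0.93). Those most like Cldn10 were Derl3, Pecr and Ttyh1 (0.97 each). Among the 9 claudins tested in all 3 tables, which leaves out Cldn1, Cldn3 and Cldn12 had the highest correlation (0.90) and Cldn2 and Cldn10 the lowest (-0.85).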

How the data were processed

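RNA-Seq was performed by the authors on pancreata of mice, 3 mice pooled per library, and the text of the study treats those of KC and KMC as pancreatic tumours. Per the labels, reads were processed with bcl2fastq 2.17.14, STAR 2.6.1a, HTSeq 0.6.1 and DESeq2 and aligned to mm10 (GRCm38). The authors deposited raw read counts per gene, without normalization, in 3 tables. The HC, KC and KMC libraries used a stranded kit per the labels, and the MC experiment a standard Illumina protocol. Whether counting used the strand was not given in the sources used here, and Cldn3 and Cldn18 overlap antisense genes, so their counts could include reads of those. The MC table lists 15175 genes, chosen by a rule not given in the sources used here, and the others 49585. Of these, 15164 and 49326 identifiers were in the GENCODE vM21 annotation, which gave symbols, positions and exon lengths. A deposited table of log2 fold changes and adjusted p-values for MC against control was not used. Groups come from the sample labels, each library is 1 replicate, and p-values measure the spread between pools.

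Within each table, low genes were removed by filterByExpr, TMM factors were computed, and edgeR 4.0.16 (glmQLFit, glmQLFTest) in R 4.3.3 tested 13902 (MC), 18407 (HC) or 15733 (KMC) genes with Benjamini-Hochberg adjustment over all of them. Of the 10 claudins, 9, 10 and 10 passed the filter. Both transgenes were compared in an interaction model of the MC and HC tables over 14884 genes. For a call, the adjusted p did not exceed 0.05 and the log2 fold change was 1 or more in either direction. The standard error was derived from the log2 fold change and its F statistic. CPM were scaled with TMM, and reads per kilobase used the union of exons. The code was tested on simulated data.

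The claudins, the marker and junction lists and the naming rule were chosen with earlier results of these data known. Named were the 10 claudins, other claudins with a mean of at least 1 CPM in an experiment, the 3 largest junction changes in each direction per comparison without overlap and with at least 2 CPM, Krt19, Epcam and Pecam1, and the genes most like Cldn2, Cldn18 and Cldn10. Ocln and Ildr2, as differences between the transgenes, were singled out after their values were seen. Alternatives were DESeq2 1.42.0, its size factors, library size with or without acinar genes, no filter, the replicate number as a block, 1 fit of all HC, KC and KMC libraries, and leaving out each library. One allele shared by the KC and KMC mice is not reported here.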

Additional observations from a re-analysis of the deposited data

Results flagged for a closer look

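Ocln, which encodes occludin, was flagged because the contrast of MC with its control and that of the libraries labelled HC with theirs differed in a test of the difference itself, by -1.13 on the log2 scale (SE 0.25, edgeR adjusted p = 0.0483 with Benjamini-Hochberg adjustment). It was 1 of 32 junction genes called, which is near the share of all genes, 2.18% of 14884. Its effect was -0.33 (SE 0.19) in MC and 0.78 (SE 0.13) in HC, each against its own control. Map4k1 went against the label HC, so the direction rests on the labels. The call was lost without any one of 10 of the 11 libraries, with library size alone (-0.70), without the acinar genes (-0.95) and with the replicate block (-1.22, edgeR adjusted p = 0.121). No group held 4 libraries, so single libraries were not tested as outliers.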

How the results depend on the processing

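Without 1 library at a time, the claudins called ranged from 0 to 1 in MC (1 without MC control 2), from 0 to 1 in HC and from 0 to 1 for the difference of M46 and HPK1 (1 without MC control 2), and the junction genes called from 0 to 1 in MC (1 without MC control 2) and from 0 to 1 in HC (1 without HC 1). Cldn2 in KMC against KC ranged from 3.64 to 4.56 (without KC 2) when 1 library was left out. It was 5.47 with library size alone and 4.66 without the acinar genes. With all HC, KC and KMC libraries in 1 fit, 0 claudins were called in HC. In each of these the cause was not tested.

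Directions turned only for differences that did not pass. With library size alone, the MC values of Cldn3, Cldn7, Cldn12, Cldn8, Cldnd1 and Tjp1 became 0.10, 0.0013, 0.11, 0.068, 0.28 and 0.041, and without the acinar genes Cldnd1 became 0.040. In HC, Cldn10 became -0.0017 with DESeq2 and with its size factors, -0.024 with library size alone, -0.029 without the acinar genes and -0.0019 without a filter, and Cldn3 became 0.013 with the replicate block. For the difference of M46 and HPK1, Cldn3 was 0.17 and Cldn4 0.14 with library size alone. Leaving out 1 library at a time gave ranges that crossed 0. In MC they were -0.47 to 0.024 for Cldn8, -0.16 to 0.27 for Cldn15 and -0.11 to 0.022 for Cldnd1. In HC they were -0.24 to 0.12 for Cldn10, -0.16 to 0.14 for Cldn3, -0.45 to 0.033 for Cldn5 and -0.51 to 0.18 for Cldn15. For the difference they were -1.12 to 0.28 for Cldn4 and -0.39 (without MC 3) to 1.06 for Cldn18.

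Pairing of libraries by replicate number was checked by the correlation of their deviations from the group mean. In the MC experiment, same-numbered libraries had r = 0.06, 0.29 and -0.28, and differently numbered ones -0.38 to 0.33. Same-numbered libraries had 0.18 and 0.15 in HC and 0.03 in KMC. In those experiments a group of 2 libraries deviates as mirror images, so r cannot decide on pairing there. With the replicate block, 0 genes were called in MC, 339 in HC (against 104), and 0 for the difference of M46 and HPK1 (against 325). The block left Cldn18 called in HC and 0 claudins in MC, and Cldn2 in KMC was 4.07. DESeq2 called 453, 468 and 1005 genes in MC, HC and the difference, against 0, 104 and 325 with edgeR. Without a filter on low counts, 395 were called in HC, without the acinar genes 51, and with 1 fit of all HC, KC and KMC libraries 1. For the difference, 98 were called with library size alone and 143 without the acinar genes. At this depth, Cldn1 in MC and KC, at 1 to 25 counts, limits any statement on it.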

Other observations

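Among the lists that described the tissue, 6 adipocyte genes had higher values in MC, with a median log2 fold change of 3.28. edgeR called 0 of them, and 6 had an unadjusted p under 0.05, where 0% of all genes were called and 9.2% were higher at that p. Their sum was 52.3 to 152 CPM in MC against 33.0 to 42.3 CPM in the controls. The 9 leukocyte genes of the MC table all had higher fitted values in MC (median 1.37), with 0 called by edgeR and 6 at an unadjusted p under 0.05, beside the same 9.2%. All 10 had lower values in HC (median -0.90), of which edgeR called 1, the B cell receptor gene Cd79a (log2 fold change -1.31, SE 0.19, Benjamini-Hochberg adjusted p = 0.0499), against 0.565% of all genes. In KMC against KC, all 8 fibroblast genes had higher values, with a median log2 fold change of 2.71.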
